A study of Mus musculus with 23 samples.

Results

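The response of GRL/L mouse embryonic fibroblasts (MEFs) to dexamethasone (Dex), a synthetic agonist of the glucocorticoid receptor (GR), was examined in 6 of the 23 libraries of the series. The libraries were chosen by genotype and treatment alone: 3 were labelled GRL/L with 10 nM Dex for 5 h and 3 were labelled GRL/L with solvent, called vehicle here. In GRL/L cells both copies of the GR gene carry a substitution of isoleucine by alanine within the ligand-binding domain. The comparison cells were GRwt/wt with the unmodified receptor (6 libraries), GRD/D, in which alanine is replaced by threonine where DNA-binding domains pair (5 libraries, 2 of them vehicle), and GRD+L/D+L with both substitutions (6 libraries), each treated in the same way. All were primary MEFs of the FVB/NJ strain from midgestation embryos without head and organs, grown in medium with fetal calf serum that the sources used here do not describe as stripped of steroids. The L allele was made by CRISPR editing in zygotes that carried the D allele, and the line was backcrossed to FVB/NJ. The series compares 8 groups of genotype and treatment, and its design text gives 3 primary cultures per genotype, each from a different mouse.

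GR is held in the cytosol by a chaperone complex, binds its steroid in the ligand-binding domain, enters the nucleus and acts on genes near glucocorticoid response elements, which pair inverted copies of a short hexamer. In fibroblasts its classical targets include Fkbp5, which encodes a co-chaperone that feeds back on GR, Tsc22d3, which encodes the anti-inflammatory protein GILZ, and the phosphatase gene Dusp1, while many cytokine genes are repressed. The comparison asks whether the substitution in the ligand-binding domain left any of this response at 10 nM Dex, and how large a response could have gone unseen.

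To show the kind of sequence through which GR acts, promoters from RefSeq (GRCm38.p6, 250 bases before to 50 after the start of the gene) were searched on both strands for GNACANNNTGTNC, the best conserved positions of the response element, which reads the same on both strands. No other motif was searched. It occurred in 156 of 32851 promoters (0.475%). Of 40 genes on the glucocorticoid-induced list or with a called rise in GRwt/wt, 30 had a promoter in the table and 3 held the motif, namely Sgk1, which encodes a kinase, the metallothionein gene Mt1 and Fam107a. These 3 are printed 5′ to 3′ on the strand of the gene with the motif in capitals, for Sgk1 at chr10:21993640-21993939 (plus strand), Mt1 at chr8:94178839-94179138 (plus strand) and Fam107a at chr14:8309730-8310029 (minus strand). A match describes the letters of the window and not a bound site.
Sgk1: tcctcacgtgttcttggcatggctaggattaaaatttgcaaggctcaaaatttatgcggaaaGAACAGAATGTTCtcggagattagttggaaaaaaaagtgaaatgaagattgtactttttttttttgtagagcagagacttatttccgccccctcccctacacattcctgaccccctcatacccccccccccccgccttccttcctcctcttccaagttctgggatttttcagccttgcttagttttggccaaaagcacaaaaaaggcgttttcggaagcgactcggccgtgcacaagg
Mt1: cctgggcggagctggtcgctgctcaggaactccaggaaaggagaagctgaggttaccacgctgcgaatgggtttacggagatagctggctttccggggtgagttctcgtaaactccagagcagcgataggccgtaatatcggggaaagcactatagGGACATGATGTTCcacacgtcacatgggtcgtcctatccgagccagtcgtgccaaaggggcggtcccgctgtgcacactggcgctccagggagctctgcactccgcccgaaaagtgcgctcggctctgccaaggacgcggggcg
Fam107a: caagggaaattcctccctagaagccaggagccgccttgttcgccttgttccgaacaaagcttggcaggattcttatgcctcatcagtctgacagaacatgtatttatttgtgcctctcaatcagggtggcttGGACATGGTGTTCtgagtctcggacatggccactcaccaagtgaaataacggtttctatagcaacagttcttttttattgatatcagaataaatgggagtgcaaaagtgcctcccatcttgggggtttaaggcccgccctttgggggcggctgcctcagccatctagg

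None of these 3 genes was called in GRL/L. Sgk1 stood at 71.7, 68 and 69.8 CPM in vehicle and 75, 68.6 and 74.8 CPM with Dex (CPM, scaled counts relative to library size), and the groups overlapped. Mt1 stood at 216, 178 and 207 CPM in vehicle and 218, 179 and 206 CPM with Dex, again with overlap. Fam107a was near silent, with 1, 0 and 2 reads in vehicle and 0, 0 and 5 reads with Dex, whereas the GRwt/wt libraries with Dex held 14.5, 4.78 and 6.80 CPM.

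The 6 GRL/L libraries held 17.9 M to 21.1 M counts each, and 19751 to 20155 genes had at least 1 count. The summed level of 12 fibroblast markers was 60088 to 66174 CPM. The summed level of 12 macrophage markers was 326 to 751 CPM in vehicle and 316 to 782 CPM with Dex, lowest in culture 3 in both treatments. Equally numbered vehicle and Dex libraries resembled each other: their deviations from the group means correlated at r = 0.578, 0.836 and 0.811 across genes, whereas every combination of unequal numbers gave a negative r. Xist stood at 1514 and 1478 CPM in the libraries numbered 2 and under 1 CPM in the rest. Y-linked genes stood at 43.4 to 111.6 CPM in numbers 1 and 3 and at most 0.06 CPM in number 2. These genes matched within the numbers but do not tell number 1 from number 3. Of the variance of log2 levels in GRL/L, averaged over 13210 genes at 1 CPM or over, 84.8% lay between cultures, 4.98% between treatments and 10.2% in the remainder. Equally numbered libraries were therefore also compared as pairs. In GRwt/wt the libraries were less alike. Vehicle library 1 reached a Spearman correlation of at most 0.916 with any other library, and vehicle library 3 held 5048 CPM of macrophage markers whereas the remaining 5 GRwt/wt libraries held 17.5 to 103 CPM.

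No gene was called for Dex in GRL/L. A gene was called where its p, adjusted by Benjamini-Hochberg, was 0.05 or less and its level changed 2-fold or more (a log2 fold change, LFC, of 1 in size). By this rule edgeR's quasi-likelihood test on all 23 libraries called 0 of 15748 genes (0%), and the smallest adjusted p was 1. At an unadjusted p under 0.05, 43 genes passed (0.273%). DESeq2 also called 0 genes in GRL/L. The median LFC was -0.003 and the 5th and 95th percentiles were -0.37 and 0.34. In the same model 25 genes were called in GRwt/wt (0.159%), all of them higher with Dex, so the fit was able to call responses to this dose and time. When the 6 GRwt/wt libraries were fitted alone edgeR called 0 genes, with 306 at an unadjusted p under 0.05, and DESeq2 on all libraries called 286, of which 165 were lower with Dex.

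The spread behind that test was shared by all 4 genotypes, including the uneven GRwt/wt libraries. The median standard error of an LFC was 0.317, and a gene of median precision would have needed an LFC of 2.12 to be called as the only changed gene. A 95% interval was therefore computed for every gene and set against limits of 2-fold and 1.5-fold. The interval lay wholly within 2-fold for 9850 genes (62.5%) and within 1.5-fold for 6357 (40.4%). In a fit of the 6 GRL/L libraries alone without pairs, 0 of 14247 genes were called and 112 had an unadjusted p under 0.05, and the interval lay within 2-fold for 12263 (86.1%).

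The paired fit of the GRL/L libraries gave the tightest bounds. It called 0 genes with a 2-fold change, while 3 genes passed the adjusted p alone (0.0211%), and 736 had an unadjusted p under 0.05 (5.17%), 294 of them higher with Dex (2.06%). The median standard error was 0.072, and a lone gene of median precision would have needed an LFC of 0.41 to pass the adjusted p. The 95% interval lay within 2-fold for 13414 of 14247 genes (94.2%) and within 1.5-fold for 11863 (83.3%). Each gene has few residual degrees of freedom with 3 pairs, and these intervals lean on the variance that edgeR shares across genes. The count by adjusted p alone turned on the cultures: it was 1 without culture 1, 27 without culture 2 (23 lower with Dex) and 32 without culture 3 (21 lower). Of these the 2-fold rule called 1 gene, Gm10175 without culture 2, a rare transcript at 0.47 CPM (LFC 2.63, adjusted p = 0.0363).

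The bounds depended on level. In the paired fit every one of the 7489 genes at 10 to 100 CPM and of the 2044 genes over 100 CPM had an interval within 1.5-fold, and the largest LFC in either direction was 0.36 and 0.22. Of 3674 genes at 1 to 10 CPM, 95% were bounded within 2-fold and 63.4% within 1.5-fold. Under 1 CPM 37.6% of 1040 genes were bounded within 2-fold and 0 within 1.5-fold. For most rarely transcribed genes the interval thus reached 2-fold or beyond at this depth. In the fit of all libraries the bounds were looser, with 61.9% of genes at 10 to 100 CPM and 59.6% over 100 CPM within 1.5-fold.

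**Figure D1:**
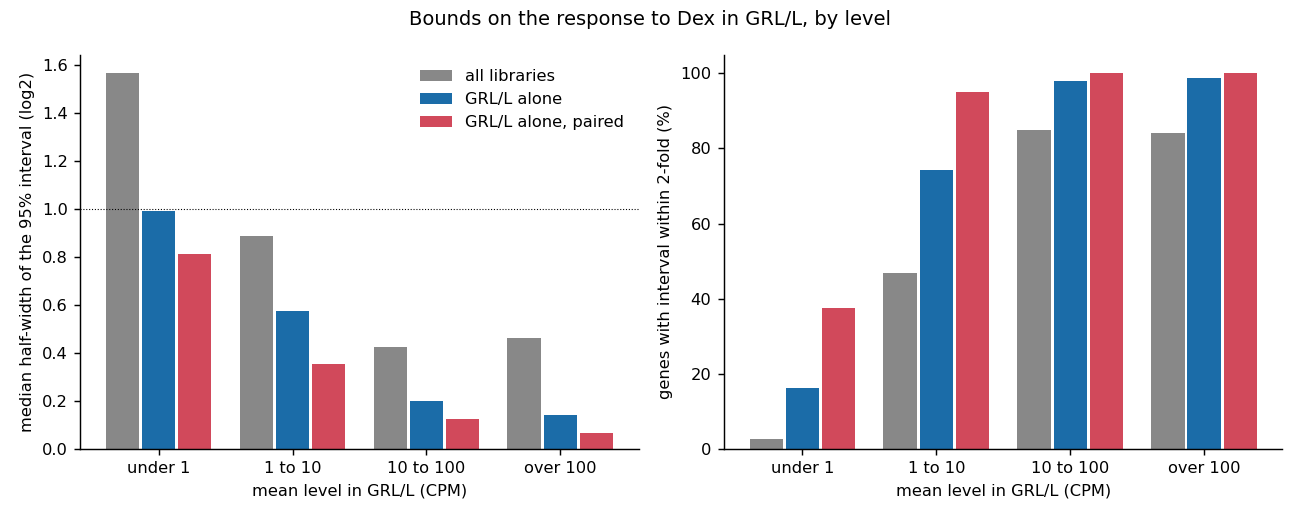
The left panel plots the median distance from the estimate to either end of the 95% interval on the log2 scale, and the right panel the percentage of genes whose interval lies within 2-fold, by mean level in GRL/L (CPM), for the fit of all libraries, of GRL/L alone and of GRL/L alone with pairs. Above 10 CPM the paired fit bounds 100% of genes, and under 1 CPM it bounds 37.6%.

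The pairs gave the same picture without a model. Among 13210 genes at 1 CPM or over, the median difference of Dex from vehicle was -0.006, 0.002 and -0.005 on the log2 scale in pairs 1, 2 and 3, with an SD across genes of 0.21, 0.22 and 0.22. Between equally numbered GRwt/wt libraries the SD was 1.37, 0.76 and 1.21, but there the numbers did not mark like libraries, so these values also hold differences between cultures and the libraries that stand apart. The difference was over 2-fold in 61, 86 and 72 genes of the 3 GRL/L pairs, but 0 genes exceeded 2-fold in one direction in every pair and 2 exceeded 1.5-fold. In 3350 genes (25.4%) all 3 pairs had the same direction, and in 575 (4.35%) the 3 Dex levels did not overlap the 3 vehicle levels, with 298 higher and 277 lower.

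**Figure D2:**
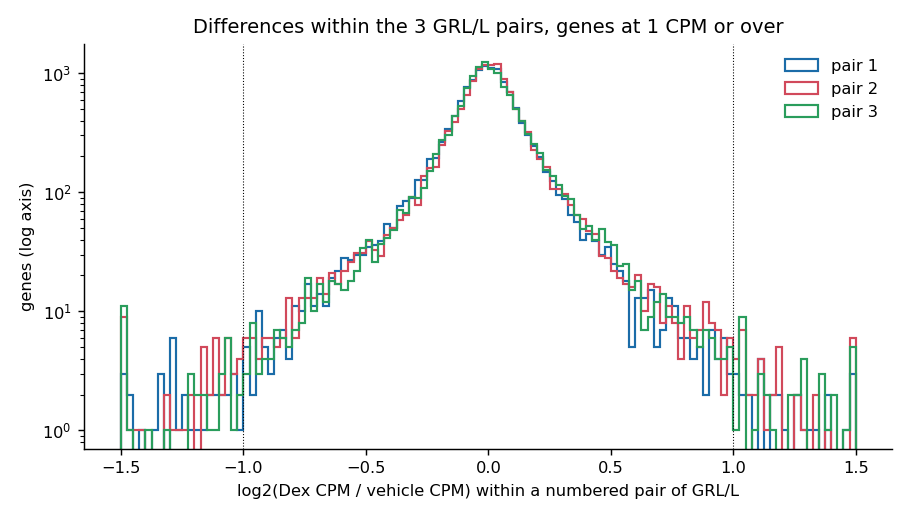
Histograms of the log2 ratio of Dex to vehicle CPM (horizontal axis) within each of the 3 GRL/L pairs, with the number of genes on a log axis and values beyond 1.5 drawn in the end bins; dotted lines mark 2-fold. The 3 curves lie on each other around 0, and 61 to 86 genes per pair fall beyond 2-fold.

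Transcripts of the receptor itself were level. Nr3c1, the gene of GR, stood at 136, 133 and 138 CPM in vehicle and 135, 138 and 131 CPM with Dex, with a paired LFC of -0.01 (95% interval -0.08 to 0.06). Counts per gene do not show the substitution, so they give no check of the genotype label. Of 17 receptor and chaperone genes, 0 were called, 16 of 17 had a paired interval within 1.5-fold, and the median LFC was 0.02 against -0.003 over all genes. The lowest and highest LFC among those at 1 CPM or over belonged to Ppid, an immunophilin co-chaperone (-0.07), and the inducible chaperone gene Hspa1b (0.16), which has a near-identical copy in Hspa1a and is uncertain. Of 16 coregulators 0 were called, with a median LFC of -0.05 and 13 below 0. In all 3 pairs 7 of the 16 (43.8%) were lower with Dex and 2 were higher, beside 13.5% and 11.9% of all genes at 1 CPM or over. Their median exon length was 9.06 kb against 4.49 kb over those genes, and its part in the tally was not tested. They ranged from Ppargc1a, a metabolic coactivator (-0.24, at 1.6 CPM), to the repressor gene Hic1 (0.05). Ep300, the acetyltransferase p300, had an unadjusted p of 0.00476 in the paired fit at an LFC of -0.11, which did not hold after adjustment (adjusted p = 0.833).

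Fkbp5, the gene with the strongest well-measured response in GRwt/wt, was almost level in GRL/L. It stood at 25.3, 29.2 and 27.3 CPM in vehicle and 29, 30.5 and 29.5 CPM with Dex, a mean of 27.3 ± 1.92 against 29.7 ± 0.797 CPM (SD, n = 3), with each Dex library slightly above its own vehicle library but the groups overlapping. The LFC was 0.12 (95% interval -0.39 to 0.64) in the fit of all libraries and 0.12 (95% interval -0.01 to 0.25) in the paired fit, in which the interval ended at a rise of 19.3%. In GRwt/wt Fkbp5 went from 28.9, 19.3 and 44.9 CPM to 350, 384 and 311 CPM, an LFC of 3.49 (adjusted p = 2.67e-06). Other transcripts overlap Fkbp5 on both strands, and strandedness of the counting was not stated.

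Tsc22d3 stood at 43.8, 49.9 and 33.7 CPM in vehicle and 42, 50.1 and 35.6 CPM with Dex, with a paired LFC of 0.01 (95% interval -0.10 to 0.11), while the mean in GRwt/wt went from 54.2 to 205 CPM. The 3 GRL/L pairs differed by -0.06, 0.01 and 0.08 on the log2 scale. Dusp1 stood at 12, 11.2 and 14.8 CPM in vehicle and 12.8, 12.8 and 16 CPM with Dex, with a paired LFC of 0.13 (95% interval -0.06 to 0.31). All 3 pairs were slightly higher with Dex, and the groups overlapped. Pdk4, a kinase gene that restrains glucose oxidation, differed more between cultures than between treatments, with 56.4, 23.6 and 131 CPM in vehicle and 65.2, 19 and 143 CPM with Dex, and its paired LFC was 0.08 (95% interval -0.03 to 0.20). The clock gene Per1 stood at 27.1, 26.5 and 27.9 CPM in vehicle and 31.6, 26.9 and 31.5 CPM with Dex, higher in all 3 pairs. Its paired LFC of 0.14 (95% interval 0.01 to 0.28) had an unadjusted p of 0.0329 (adjusted p = 0.963).

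**Figure D3:**
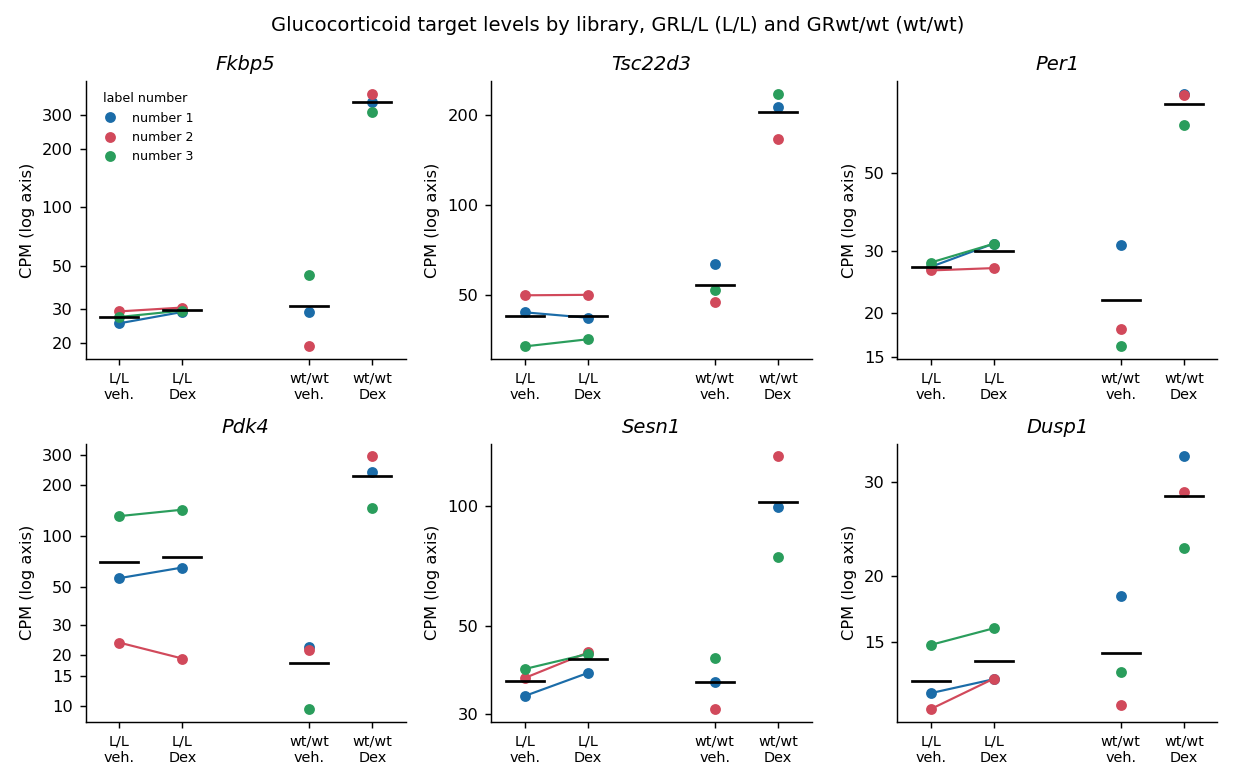
Level in CPM (log axis) of 6 glucocorticoid targets in every GRL/L and GRwt/wt library, with vehicle and Dex side by side, black bars for the group means, and lines between equally numbered GRL/L libraries. The GRL/L lines are close to flat, whereas each GRwt/wt Dex library stands above every GRwt/wt vehicle library.

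All 20 genes of the glucocorticoid-induced list were tested, and 0 were called in GRL/L. The median LFC was 0.03 (pairs 0.02, 0.02 and 0.02) against -0.003 over all genes, and 14 of 20 were above 0, as were 7582 of all 15748. The estimates for 18 genes measured in the paired fit ranged from -0.08 for Crispld2 to 0.14 for Per1, all 18 intervals lay within 1.5-fold, and the highest end of any of them was 0.36 (Cebpd). Only Per1 had an unadjusted p under 0.05 there. These bounds depended on the fit: in the fit of all libraries 13 of the 20 intervals lay within 2-fold. Of the 18, 5 (27.8%) were higher with Dex in all 3 pairs (Cebpd, Dusp1, Fkbp5, Per1 and Sgk1, with paired LFCs of 0.06 to 0.14) and 0 were lower in all 3. Among all genes at 1 CPM or over 11.9% were higher and 13.5% lower in all 3. For the repressed list described next the tally was 3 higher and 1 lower of 15. The pairs of the target genes Klf9 (-0.03, 0.12 and 0.03) and Errfi1 (0.08, 0.21 and -0.03) did not share a direction. The G protein regulator gene Rgs2 had a mean of 48.2 CPM in vehicle and 49.0 CPM with Dex, against 34.2 and 152 CPM in GRwt/wt. Mt2, the second metallothionein, was bounded between -4.9% and 4.7%. The remaining 2 members, Zbtb16 and Hif3a, are treated with the near-silent genes. In GRwt/wt all 20 were above 0, with a median LFC of 1.42, and 5 were called.

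Of the 22 inflammatory genes listed as repressed by glucocorticoids, 20 passed the expression filter and 0 were called in GRL/L, with 10 above and 10 below 0 and a median LFC of -0.007 (pairs -0.02, 0.03 and -0.05). The chemokine gene Ccl2 stood at 14.5, 7.91 and 23.1 CPM in vehicle and 14.8, 10.7 and 24.5 CPM with Dex. It was lowest in culture 2 in both treatments, and its paired LFC was 0.15 (95% interval -0.04 to 0.33). Cxcl5, another chemokine gene, had the lowest paired LFC, -0.16 (95% interval -0.36 to 0.03), and all 3 pairs were below 0. Ptgs2, the inducible cyclooxygenase gene, had a paired LFC of 0.13 (95% interval 0.02 to 0.24) with an unadjusted p of 0.0226 (adjusted p = 0.960), opposite to the direction of its list. Of the 15 members in the paired fit, 15 intervals lay within 2-fold and 14 within 1.5-fold. The widest belonged to the cytokine gene Il11 (-0.30 to 0.64). In the fit of all libraries 5 of the 20 intervals lay within 2-fold. Il6, Tnf, Cxcl10, Ccl5 and Saa3 were under 1 CPM and had intervals wider than 2-fold, and Nos2 and Il1b did not pass the filter. None of the list was called in GRwt/wt either, where the median LFC was -0.43.

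**Figure D4:**
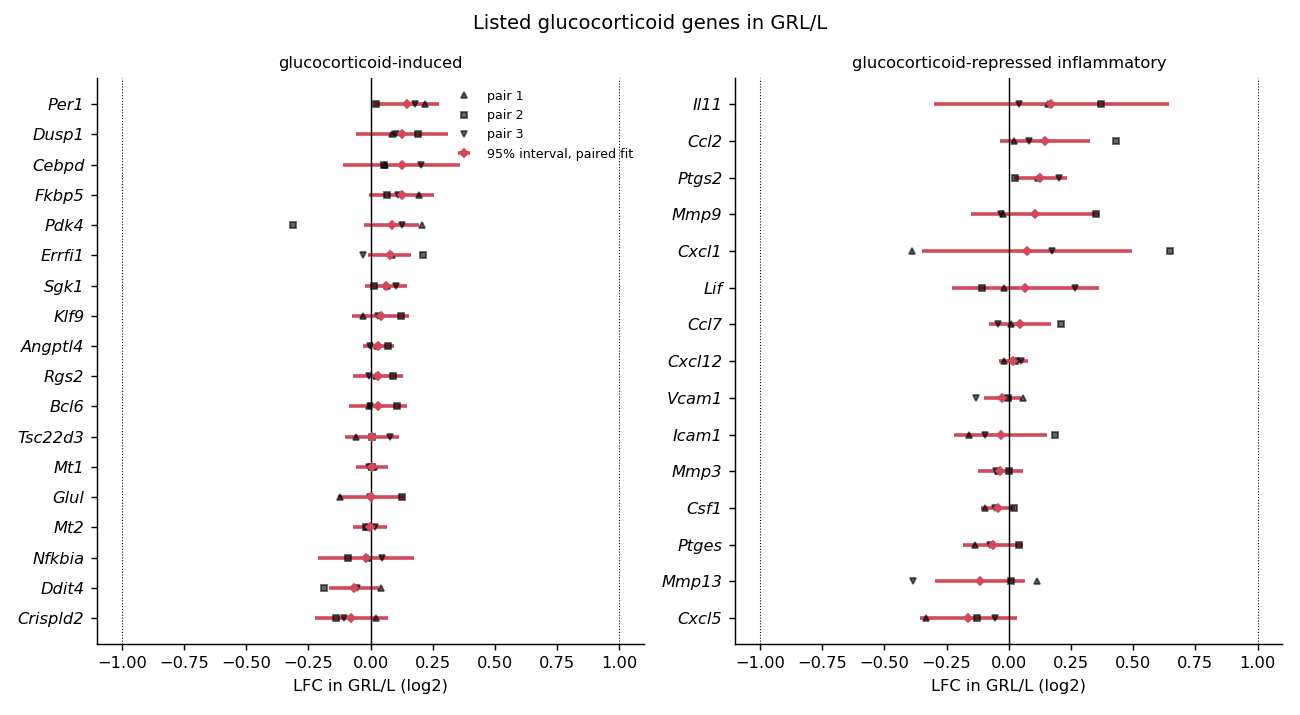
Paired LFC in GRL/L (log2, horizontal axis) with 95% intervals for 18 glucocorticoid-induced genes (left) and 15 glucocorticoid-repressed inflammatory genes (right), with the 3 pair differences as black symbols and dotted lines at 2-fold. Every interval lies inside the dotted lines, and most of them cross 0.

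The 25 genes with a called rise in GRwt/wt gave a scale for the bounds. Their GRwt/wt values chose them and are a description. Of these, 20 were measured in the paired GRL/L fit, where 11 were above 0, the median LFC was 0.01 and the estimates ranged from -0.33 for AC103362.1, a gene at 0.56 CPM, to 0.18 for Sesn1. Of the 19 at 1 CPM or over, 8 (42.1%) were higher with Dex in all 3 pairs and 0 were lower in all 3, beside 11.9% higher and 13.5% lower in all 3 among the 13210 genes at that level. Fkbp5, Per1 and Sesn1 were among the 8, whose paired LFCs were 0.04 to 0.18, and none of the 8 passed the adjusted p. The upper end of the paired interval had a median of 0.13, beside a median LFC of 1.56 in GRwt/wt, a 2.95-fold change. As a share of the GRwt/wt LFC it was at least 0.955% for Peak1, a kinase-like scaffold gene, at most 36.8% for Klf15, a transcription factor gene at 1.68 CPM in vehicle, and 9.84% in the median. This bound depended on the fit: over the same 20 genes in the fit of all libraries the upper end had a median of 0.49, and its share of the GRwt/wt LFC a median of 33.7%. In that fit it lay below the lower end of the GRwt/wt interval in all 20. The genes were chosen there by a large GRwt/wt LFC, which favours this gap and small shares, so neither is a test. Without GRwt/wt vehicle library 1, 75 genes were called in GRwt/wt (34 of them lower), without library 3, 95 (2 lower), and without library 2, 374 (192 lower), whereas 14 were called without Dex library 2, all higher. The macrophage markers that set vehicle library 3 apart touch that comparison, and their part in it was not tested.

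**Figure D5:**
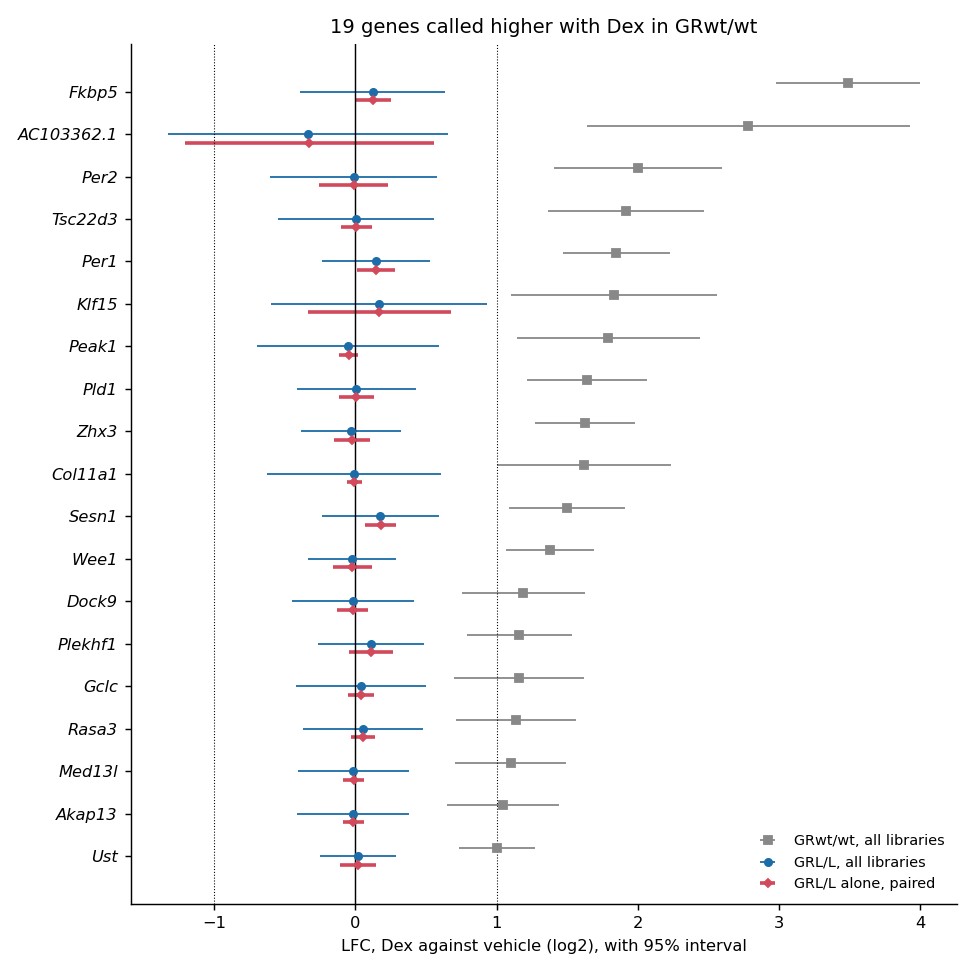
LFC of Dex against vehicle (log2, horizontal axis) with 95% intervals for 19 genes with a called rise in GRwt/wt, in GRwt/wt (grey squares), in GRL/L from all libraries (blue circles) and in GRL/L alone with pairs (red diamonds); dotted lines mark 2-fold. The GRL/L intervals are centred near 0, and no grey interval meets the blue interval of its gene. The genes were chosen by their GRwt/wt values, which favours this gap.

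Sesn1, which encodes a stress-responsive inhibitor of mTORC1, had the highest paired LFC of the 20 genes. It stood at 33.3, 37 and 38.9 CPM in vehicle and 38.1, 42.9 and 42.5 CPM with Dex, higher in all 3 pairs by 0.19, 0.21 and 0.13 on the log2 scale, with groups that overlapped. Its paired LFC was 0.18 (95% interval 0.07 to 0.29), with an unadjusted p of 0.00284 (adjusted p = 0.749), while the mean in GRwt/wt went from 36.2 to 102 CPM. The 2 genes of this set with an unadjusted p under 0.05, Sesn1 and Per1, were both higher with Dex and are 10% of the 20, beside 2.06% of all genes that were higher at that p.

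The other 5 genes of the set were near silent in GRL/L, and their fold change was bounded only loosely. In the fit of all libraries, which rests on a few reads for each, the upper end of the interval ran from 0.92 for Card14 to 4.38 for Zbtb16. These genes passed the filter of that fit through GRwt/wt Dex libraries, so nothing further was read from their intervals. Zbtb16, a zinc-finger repressor gene, had 0, 0 and 2 reads in vehicle and 0, 0 and 1 with Dex. Hif3a, a member of the hypoxia-inducible family, had 2, 1 and 1 reads in vehicle and 0, 0 and 1 with Dex. Rasd1, a small GTPase gene named for its induction by Dex, had 2, 2 and 1 reads in vehicle and 5, 4 and 2 with Dex, and Card14 had 8, 3 and 4 against 4, 2 and 3. In GRwt/wt with Dex these 4 genes reached 0.708 to 16.8 CPM. Rasd1 was higher with Dex in every pair, but on 5 reads against 11 in all.

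The difference of the response between GRL/L and GRwt/wt was tested itself. It was called for 4 genes (0.0254%), each with a smaller response in GRL/L. For Fkbp5 the difference in LFC was -3.37 ± 0.34 (SE; edgeR adjusted p = 0.000356), and it was called in all 22 fits made. For Zhx3, a transcriptional repressor gene, the difference was -1.66 ± 0.24 (adjusted p = 0.0148), called in 18 of 22 fits. For Per1 it was -1.71 ± 0.26 (adjusted p = 0.0148), called in 13, and for Wee1, the gene of a kinase that delays mitosis, -1.40 ± 0.21 (adjusted p = 0.0148), called in 11. The count fell to 1 or 2 when any GRL/L library was left out and rose to 8 or 9 without GRwt/wt vehicle library 1, 2 or 3. With culture as a block 22 differences were called, 21 of them lower in GRL/L, although equal numbers in GRwt/wt did not mark like libraries (r = 0.587, -0.004 and -0.096).

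Differences from the other mutants were not called. For GRL/L minus GRD/D edgeR called 0 genes and 74 had an unadjusted p under 0.05. Fkbp5 differed by -1.56 (95% interval -2.33 to -0.79) and Per1 by -1.20 (-1.78 to -0.63), both smaller in GRL/L, and both were called when only these 2 genotypes entered the fit. With culture as a block 6 genes were called, of which 4 were Y-linked, but equal numbers in GRD/D did not mark like libraries either (r = 0.388 and -0.337). For GRL/L minus GRD+L/D+L edgeR called 0 genes and 61 had an unadjusted p under 0.05, while DESeq2 called 5. The DESeq2 differences of those 5 genes were 15.4 to 17.3 in size, 3 of them higher and 2 lower in GRL/L. In edgeR Fkbp5 differed by 0.05 (-0.67 to 0.78).

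No gene of the clock, immediate early or matrix lists was called. The tally of genes higher with Dex in all 3 pairs was 5 of 18 (27.8%), 5 of 19 (26.3%) and 5 of 18 (27.8%) in these lists, with 0, 0 and 3 lower in all 3, beside 11.9% higher and 13.5% lower among all genes at 1 CPM or over. Of 18 circadian clock genes 0 were called, with a median LFC of 0.04, and Dbp, a clock output gene, had the highest at 0.23. It stood at 18.8, 23.1 and 19.6 CPM in vehicle and 24.8, 25.4 and 22.1 CPM with Dex, higher in all 3 pairs but with overlapping groups (paired unadjusted p = 0.00305, adjusted p = 0.749), while its LFC in GRwt/wt was -0.36. Per2, called in GRwt/wt, stood at 6.94, 8.07 and 7.24 CPM in vehicle and 6.33, 7.74 and 7.98 CPM with Dex and had a paired LFC of -0.01 (95% interval -0.26 to 0.23). Of 19 immediate early genes 0 were called and all 19 had paired intervals within 1.5-fold, from the serum response factor gene Srf (-0.08) to Ier3 (0.20). All 18 adipogenic and matrix genes were bounded within 1.5-fold in the paired fit as well. In the fit of all libraries 9 of the 18 were bounded within 2-fold. There the fibronectin gene Fn1 was lowest (-0.06) and Fabp4, a fatty acid carrier gene, highest (0.19). The 13 reference genes ranged from -0.08 (Tbp) to 0.12 (Rpl13a), with all 13 bounded within 1.5-fold in the paired fit. None of the 12 fibroblast, 12 macrophage, 4 endothelial, 3 epithelial, 2 skeletal muscle or 7 neural and glial markers that passed the filter was called.

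The genes with the smallest p-values in the fit of all libraries were rare transcripts. Synpo2l, which encodes a cytoskeletal protein of striated muscle, had the smallest. It had 14, 12 and 18 reads in vehicle and 3, 2 and 3 with Dex, without overlap, and an LFC of -2.46 (95% interval -3.74 to -1.18), with an adjusted p of 1 in that fit and 0.126 in the paired fit. The other 9 of the 10 smallest had a mean below 2 CPM, and 6 of them were unnamed Gm models. Gm5828, for example, went from 0.999, 0.915 and 1.09 CPM to 1.55, 1.83 and 1.81 CPM, an LFC of 0.78 (95% interval 0.24 to 1.33). Among genes at 1 CPM or over with non-overlapping groups, the lowest LFCs were those of Gm47113 (-0.88), N4bp2os (-0.82) and Trim71 (-0.81) and the highest those of Gm6560 (0.82), Gm5828 and Rtkn2 (0.72), all under 2 CPM and none called. The prostaglandin receptor gene Ptger2 was among the 5 highest, with 0.666, 0.7 and 1.03 CPM in vehicle and 1.36, 1.16 and 1.38 CPM with Dex. Its paired LFC was 0.70 (95% interval 0.04 to 1.37), with an adjusted p of 0.963.

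The 3 genes that passed the adjusted p in the paired fit were lower with Dex by small steps. None of the 3 passed without culture 1, where the 1 gene that did was another, CT010467.1, and all 3 passed without culture 2 or culture 3. The extracellular matrix gene Hmcn1 fell by 0.22 on the log2 scale (edgeR adjusted p = 0.0138), from 141, 138 and 164 CPM to 115, 129 and 136 CPM, without overlap. Kmt2d, a histone methyltransferase gene, fell by 0.22 (adjusted p = 0.0338), from 89.5, 96.8 and 99.2 CPM to 71.3, 89.5 and 84.3 CPM, where the highest Dex level touched the lowest vehicle level. Igfbp5, which encodes a binding protein of insulin-like growth factors, fell by 0.14 (adjusted p = 0.0198), from 3157, 2944 and 3632 CPM to 2788, 2716 and 3326 CPM, with overlap but lower in every pair. In GRwt/wt the LFC of Hmcn1, Kmt2d and Igfbp5 was 1.60, 0.17 and 0.97, none of them called.

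Long genes stood out among these small differences. Of the 50 genes with the smallest paired p, 39 were lower with Dex, and their median exon length was 9.80 kb against 4.49 kb over genes at 1 CPM or over. Of 287 genes with over 16 kb of exon, 18.1% had an unadjusted p under 0.05, 49 of these 52 lower, against 4.57% of genes with 2 to 4 kb. The median difference of those longest genes was -0.07, 0.01 and -0.06 in pairs 1, 2 and 3, so pair 2 did not share it. Between GRwt/wt libraries numbered 1 the median difference was far larger and of the other sign, 2.01 over 16 kb and -0.38 under 1 kb, and this touches the GRwt/wt LFCs of long genes such as Hmcn1. Its part in them was not tested. With a per-library correction for exon length 1 gene (Igfbp5) passed the adjusted p, and 691 had an unadjusted p under 0.05. What sets the difference by length was not tested.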

How the data were processed

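Primary MEFs of 4 GR genotypes were profiled by RNA-seq after 5 h with vehicle or 10 nM Dex. The authors deposited raw counts per Ensembl gene for all 23 libraries. Per their methods and processing notes, TruSeq libraries of total RNA were sequenced on a NovaSeq instrument, reads were mapped to mm10 with HISAT2 2.1.0, and uniquely mapped reads were counted with featureCounts 2.0.0. The annotation release and strandedness are not given in the sources used here, so overlapping genes and near-identical copies are uncertain. Symbols and exon lengths were taken from GENCODE M21 of GRCm38, in which 55227 of 55487 identifiers were found.

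Counts were analysed in R 4.3.3 with edgeR 4.0.16 (quasi-likelihood test, TMM scaling, filterByExpr, prior count 0.125), with 1 mean per group over all libraries. Genes were called by the rule given with the first count, with Benjamini-Hochberg adjustment over all genes tested. The 95% intervals are Wald intervals on the quasi-likelihood variance, not below the Poisson variance. The paired fit held the 6 GRL/L libraries with culture as a block. The pairing rests on the design text, which gives 3 cultures per genotype, and on the correlations of deviations, each over 0.1 in GRL/L. No 2 GRL/L libraries of a group agreed within sampling noise. The edgeR fit of the GRL/L response and its intervals were tested on simulated counts, with all libraries and in the paired fit. The other steps were not.

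The genotype, gene lists and tests were chosen with earlier results of these data known. Genes were named by a rule: Nr3c1, Fkbp5, Tsc22d3 and Dusp1, the members of both glucocorticoid lists, the 10 smallest p-values, the 5 largest rises and falls among non-overlapping genes at 1 CPM or over with the same direction in all pairs, the 10 largest called rises of GRwt/wt at 1 CPM or over, called differences, genes called in GRL/L in an alternative, and the extremes of each other list at 1 CPM or over. Sesn1, AC103362.1, Rasd1, Ep300, Hmcn1, Kmt2d, Igfbp5 and CT010467.1 fall outside it and were picked after their values were seen. RefSeq promoters were searched as described with them. Alternatives were RLE and upper-quartile scaling, other filters, other sets of libraries, culture as a block, DESeq2 1.42.0, a prior count of 2, other call and interval rules, and leaving out each library. Of the called rises, 1 gene is counted but not reported here by name.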

Additional observations from a re-analysis of the deposited data

Results flagged for a closer look

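A test of the difference between genotypes, in the fit of all 23 libraries with edgeR, set 4 genes apart. The response to Dex in GRL/L minus that in GRwt/wt was -3.37 for Fkbp5, -1.71 for Per1, -1.40 for Wee1 and -1.66 for Zhx3 on the log2 scale. In each case the levels of the 3 GRL/L Dex libraries were close to those of the GRL/L vehicle libraries, and the 3 GRwt/wt Dex libraries stood above the GRwt/wt vehicle libraries.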

How the results depend on the processing

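With edgeR's quasi-likelihood test, 0 genes were called for Dex in GRL/L under every alternative that kept all its libraries, DESeq2 included, and the replicate block changed no call there under the rule of adjusted p and fold. By the adjusted p alone the paired fit passed 3 genes, 1 to 32 on leaving out a culture (27 without culture 2 and 32 without culture 3), and 1 with an exon-length correction, an alternative chosen after seeing the data, as were the fits without a culture and without GRwt/wt vehicle libraries 1 and 3. Leaving out libraries or cultures gave 0 to 1 calls, the 1 being Gm10175 in the paired fit without culture 2. The genes bounded within 2-fold then numbered 8731 to 12921. This range pools the fit of all libraries, with 9850 when none was left out, and the paired fit, with 13414. In the fit of all libraries a limit of 1.5-fold left 6357 of 9850.

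Counts that involve GRwt/wt were less stable. Calls in GRwt/wt numbered 25 as reported, 0 in its libraries alone, 199 with the replicate block, 286 with DESeq2 and 14 to 374 on leaving out a library. For GRL/L minus GRwt/wt, 4 calls became 1 with only these genotypes, 22 with the block, 20 with DESeq2, 7 without GRwt/wt vehicle libraries 1 and 3, and 1 to 9 on leaving out a library. For GRL/L minus GRD/D, 0 became 2 with only these genotypes and 6 with the block, and for GRL/L minus GRD+L/D+L 5 with DESeq2; both stayed at 0 on leaving out a library. The cause was not tested.

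List medians in GRL/L stayed near 0. For the genes called in GRwt/wt the median was -0.0148 with upper-quartile scaling, 0.0259 without those 2 vehicle libraries, and -0.0714 to 0.0783 on leaving out a library. For the glucocorticoid-induced list it was 0.0316 with at least 10 counts in every library, 0.0308 in GRL/L alone, 0.0210 with the block on all libraries, 0.0312 with the block on GRL/L alone, and -0.0392 to 0.0906 on leaving out a library. For the repressed list it was 0.0336 with the block on all libraries and -0.180 to 0.168 on leaving out a library.

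Over 71 named genes, which do not include Gm10175, 0 of 795 LFCs under other settings were called. On leaving out a library or culture 0 of 1031 were called. The sign changed in 10 and 95 of these values, in 6 and 40 of the genes. Among the genes that changed sign, the LFC in the fit of all libraries was at most 0.19 and 0.82 in size. Depth limits the bounds for genes under 1 CPM, and 3 cultures from 3 mice limit them for all genes.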
